A study of Homo sapiens with 2 samples.

Results

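The nuclear genes for the subunits of the oxidative phosphorylation complexes were compared between the cytarabine-resistant line R-HL60 and its parent HL60. The members were chosen by name alone: every gene name that begins with NDUFA, NDUFB, NDUFC, NDUFS or NDUFV and a number, with UQCR, with COX and a number of the nuclear subunit series, or with ATP5, and the names SDHA to SDHD. This gave 89 of the 43317 names on the array, carried by 125 of its 58201 probes. Of these names, 74 were subunits of complexes I to V and 9 were alternative forms of a subunit, together 83. The other members were 2 older symbols of accessory factors (ATP5S and ATP5SL, now DMAC2L and DMAC2), 3 antisense or divergent transcripts and the pseudogene UQCRBP1.

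HL60 is an established acute myeloid leukaemia line of promyelocytic character. The parental cells had no treatment, and R-HL60 came from them through continuous exposure to rising doses of cytarabine, a deoxycytidine analogue that blocks DNA synthesis. The labels do not say whether the resistant cells were a single clone or were still in drug when RNA was taken. Total RNA of each line was labelled with Cy3 and read on 1 Agilent one-colour array, so the array and the line cannot be told apart and no difference has a test, an error or a p-value. The comparison asks which transcripts differ once the line has become resistant.

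Oxidative phosphorylation takes place at the inner mitochondrial membrane. Complexes I (NADH dehydrogenase) and II (succinate dehydrogenase) pass electrons to coenzyme Q, complex III passes them on to cytochrome c and complex IV to oxygen. Complexes I, III and IV pump protons, and complex V, the ATP synthase, uses the gradient to make ATP. Mitochondrial DNA encodes a few core subunits, and the nucleus encodes the rest, including all of complex II.

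Both arrays were alike in brightness, with a 75th percentile of 292 for HL60 and 294 for R-HL60, which served to scale them. A name counted as measured when it lay above the array's median signal, the floor, of 30.7 and 32.8 intensity units. Each gene is given by its brightest probe. Signals are printed unscaled, and differences are log2 of the scaled resistant signal minus that of the parental one. The promyelocytic markers MPO and CEBPE were measured on both arrays, at 309491 and 93230 in HL60 and at 285746 and 85438 in R-HL60. Of the 9 markers of this kind 8 were below 0, with a median of -0.18. On this scale 57.2% of all names measured on both arrays were below 0, and 72.5% of those above 10000 units on both. Past 1.2-fold lower were 3 of the 9 markers, against 10.7% of the names above the floor on at least 1 array. These were the protease genes ELANE, from 700 to 153 (-2.20), and PRTN3, from 32955 to 18985 (-0.80), and CEBPA, a transcription factor of the granulocyte line, from 30891 to 22616 (-0.46). Of 22 markers of T, B, erythroid, epithelial, fibroblast, endothelial and monocytic cells, 13 lay above the floor on both arrays, 1 on one array and 8 on neither. EPCAM, CDH1, COL1A1, COL1A2, COL3A1, PAX5, CD3G and FCGR3A were the 8 below it. Of all 43317 names, 21851 lay above the floor on both arrays and 19770 on neither. Among the 13 markers above it on both, the T-cell gene CD3D went from 3923 to 6201, while CD3E went from 84.6 to 76.9. The endothelial gene VWF went from 76.7 to 109, while CDH5 went from 148 to 120 and PECAM1 from 192 to 182. The part of such differences in the values below was not tested.

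The transcripts of the respiratory chain and the ATP synthase had nearly equal signals in both lines. Of the 83 subunits and alternative forms, 79 were above the floor on both arrays, none on 1 array only and 4 on neither. Their median log2 difference was -0.03, the same as the median of -0.03 over all 21851 names measured on both arrays. Of the 79, 69 (87.3%) differed by at most 0.1 on the log2 scale, against 39.5% of all names, and 78 by at most 0.25, against 75.4%. Most of these probes are bright, and bright probes vary less. A limit of 10000 units on both arrays, set after the data were seen, was passed by 2309 names. Of these, 61.1% lay within 0.1 and 91.8% within 0.25. Of the 70 subunits this bright, 61 (87.1%) lay within 0.1. The bright names and the bright subunits were not matched in brightness above this limit. Very bright probes may be compressed by saturation, which was not tested.

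A single subunit gene passed 2-fold. No subunit was at least 2-fold higher in R-HL60, where 0.786% of the 23547 names above the floor on at least 1 array were, and 1 was at least 2-fold lower, where 0.297% were. That gene was COX8C, a form of complex IV subunit 8 known from testis. The same gene was the only one past 1.5-fold, where 3.53% of all names were higher and 1.38% lower, and the only one past 1.2-fold, a limit added after the data were seen, where 13.3% were higher and 10.7% lower. Among the bright names 1.56% passed 1.2-fold higher and 5.46% lower, and none of the 70 bright subunits did on this scale.

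**Figure D1:**
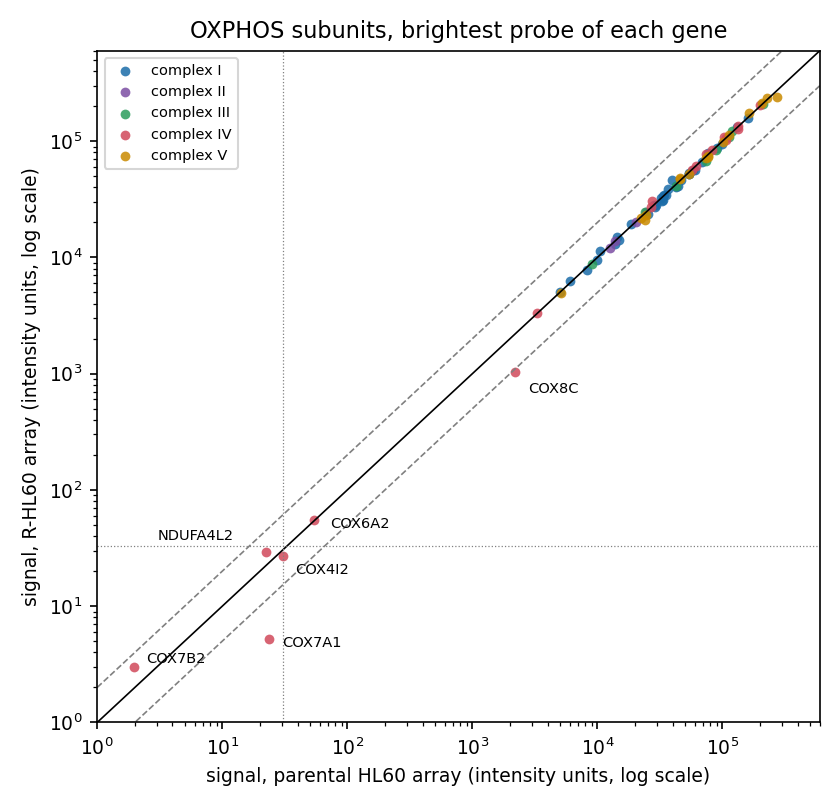
Signal of each of the 83 subunits and alternative forms (brightest probe) on the parental array (x) and the resistant array (y), in intensity units on log scales, coloured by complex. The solid line marks equal signals, the dashed lines 2-fold and the dotted lines each array's median; most points lie on the solid line in the bright range, COX8C lies just past the lower dashed line, and 4 alternative forms lie below both medians.

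The median differences were small, and the sign of the median over all subunits changed with the scaling. On the scale used here 24 subunits were above 0 and 55 below it, whereas quantile normalization and the authors' deposited normalized table both put 47 above and 30 below, with a median of 0.01. Names of all kinds moved with them by 0.02, and bright names from -0.05 to -0.00. With 1 array per line, no complex is called higher or lower as a whole. By complex, the medians were -0.04 for complex I (36 genes), -0.02 for complex II (4 genes), -0.05 for complex III (8 genes), 0.01 for complex IV (15 measured genes) and -0.04 for complex V (16 genes). With quantile normalization they were 0.01, 0.05, 0.00, 0.01 and 0.00 in that order. The median of complex IV was above 0 under every scaling tried, at 0.01 to 0.04, and at -0.01 over its ubiquitous genes alone.

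**Figure D2:**
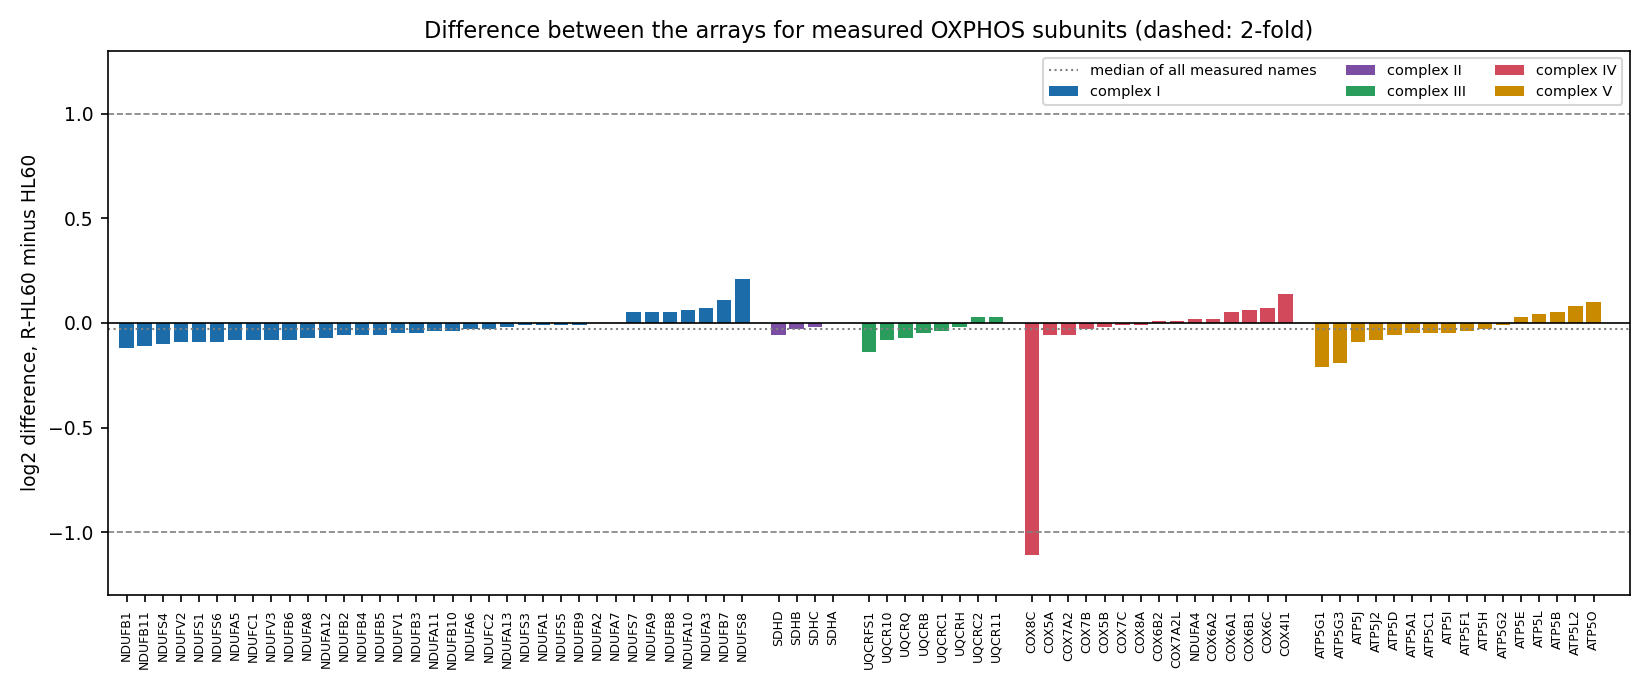
Log2 difference (R-HL60 minus HL60) of 78 of the 79 measured subunits and alternative forms, 1 bar each, sorted within complexes I to V; the dotted line is the median of all measured names and the dashed lines mark 2-fold. COX8C at -1.11 stands alone, and every other bar lies between -0.21 and 0.21.

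Complex I receives electrons from NADH. Its 36 genes ran from -0.12 to 0.21. Of the nuclear core subunits, which carry the flavin and the iron-sulphur clusters or help bind coenzyme Q, NDUFS8 went from a signal of 39695 in HL60 to 46275 in R-HL60, a difference of 0.21 that was the highest of all subunits. It stayed between 0.21 and 0.27 over 6 settings, the main one included, and rested on 1 probe. For a gene with 1 probe, the mean of all probes repeats the main setting. The authors' table nearly repeats quantile normalization, so these settings only rescale the same pair of signals. Under quantile normalization (0.27) it just reached 1.2-fold, and in the authors' deposited normalized table it was close to that limit (0.26). NDUFS7, which like NDUFS8 holds an iron-sulphur cluster near the coenzyme Q site, went from 18717 to 19505 (0.05). NDUFV1, which binds NADH and the flavin, went from 53578 to 52041 (-0.05). NDUFS3, a core subunit of the arm in the matrix, was at 33681 and 33607 (-0.01). NDUFS1, an iron-sulphur protein of the NADH-oxidising arm, was at 25168 and 23740 (-0.09), and NDUFV2 of the same arm at 42831 and 40381 (-0.09). The median of the 7 core subunits was -0.01.

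The 18 supernumerary subunits of the NDUFA, NDUFC, NDUFS and NDUFV series, which surround the core and are needed for its assembly or stability, had a median of -0.03 and ran from -0.10 to 0.07. The lowest was NDUFS4, a subunit whose loss causes Leigh syndrome, at 13893 and 13022 (-0.10). NDUFA3 was the highest, at 36617 and 38798 (0.07), and NDUFA10 followed at 14371 and 15023 (0.06). NDUFA13, also known as GRIM-19, was at 46896 and 46499 (-0.02). NDUFA9, which sits near the coenzyme Q site, was at 6001 and 6257 (0.05), NDUFS5 at 131472 and 131564 (-0.01) and NDUFC1 at 60064 and 57083 (-0.08). NDUFA2 and NDUFA7 were within 0.01 of equality, at 32372 and 32498 and at 34332 and 34435. No member of this series reached 1.2-fold on its brightest probe.

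The NDUFB subunits belong to the membrane arm, where protons are pumped. Their median was -0.06 over 11 genes, 9 of them below 0, where 72.5% of all bright names were. With quantile normalization the median was 0.00 and 4 of the 11 were below 0. The 2 lowest values of the whole complex were here: NDUFB1 went from 33057 to 30666 (-0.12) and NDUFB11, encoded on the X chromosome, from 44437 to 41388 (-0.11). NDUFB7 went the other way, from 10461 to 11320 (0.11), and NDUFB8 from 75962 to 79306 (0.05). The NDUFB1 difference was -0.03 under the scaling that moved it most.

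Complex II oxidises succinate and is also an enzyme of the TCA cycle. SDHA, the flavoprotein, was at 24479 and 24690 (0.00). SDHB, the iron-sulphur subunit, was at 20377 and 20146 (-0.03). The membrane anchor genes SDHC and SDHD were at 13872 and 13790 (-0.02) and at 12629 and 12149 (-0.06). SDHA had 4 measured probes between -0.04 and 0.02, SDHC 4 between -0.10 and 0.01, and SDHD 3 between -0.20 and -0.06.

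Complex III moves electrons from coenzyme Q to cytochrome c. Its lowest gene was UQCRFS1, the Rieske iron-sulphur protein, at 73996 and 67355 (-0.14). Its values ran from -0.14 to -0.11 over 6 settings, which rescale the signals of 1 probe. UQCR10 was at 88785 and 84629 (-0.08), and its 3 probes lay between -0.16 and -0.08. UQCRQ was at 113262 and 108748 (-0.07) and UQCRB at 42493 and 41186 (-0.05). The core proteins UQCRC1 and UQCRC2 were at 8975 and 8753 (-0.04) and at 23955 and 24682 (0.03). UQCRH, the acidic hinge protein, was at 210162 and 209098 (-0.02), and UQCR11 at 120112 and 123335 (0.03). The choice by name leaves out any nuclear subunit of complex III whose name does not begin with UQCR. None of the 8 genes reached 1.2-fold on its brightest probe.

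Complex IV hands electrons to oxygen, and several of its subunits exist as a ubiquitous and a tissue form. The 11 ubiquitous genes had a median of -0.01 and ran from -0.06 to 0.14. COX4I1, the form of subunit 4 found in most tissues, was the highest, at 27451 and 30435 (0.14, and up to 0.22 over 6 settings). COX6C was at 102805 and 108664 (0.07), COX6B1 at 73579 and 77195 (0.06) and COX6A1 at 198636 and 206355 (0.05). The lowest were COX5A, at 106299 and 102546 (-0.06), and COX7A2, at 132438 and 127397 (-0.06), with COX7B next at 57535 and 56573 (-0.03). COX8A, COX7C and COX5B were within 0.02 of equality. NDUFA4, named as a complex I subunit in the files but renamed COXFA4 and placed in complex IV, was at 82347 and 83978 (0.02).

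The alternative forms of complex IV differed in whether they could be measured. COX8C, from a signal of 2202 on the parental array to 1027 on the resistant one, had a log2 difference of -1.11, 2.16-fold lower. It kept values between -1.11 and -1.06 over 6 settings, including an offset of 50 units, but these rescale the same pair of signals. COX8C rests on 1 probe and has no further measurement. Its ubiquitous counterpart COX8A was at 134352 and 134665 (-0.01), with a second probe at 0.01. The measured protein-coding genes nearest to COX8C in the order of the reference table were BTBD7 on one side, at -0.34, and PRIMA1 on the other, at 0.40. ASB2, 3 places away in that order, went from 187 to 1023 (2.45). The other measured genes up to 5 places away on either side ran from -0.23 to 0.05. UNC79, directly beside COX8C, was below the floor on both arrays. COX6B2, another testis form, was at 3292 and 3330 (0.01), and COX6A2, the heart and muscle form of COX6A1, was close to the floor at 54.1 and 55.3 (0.02).

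Forms below the floor on both arrays have no measured difference. These were COX4I2, a form linked to low oxygen and to lung, at 30.4 and 27.2, COX7A1, the heart and muscle form, at 23.8 and 5.26, COX7B2 at 1.97 and 2.98, and NDUFA4L2, a hypoxia-induced relative of NDUFA4, at 22.2 and 29.2. COX7A2L, which helps to join complexes into supercomplexes, was at 26829 and 27160 (0.01), with a second measured probe at 0.02. Of the 8 alternative forms of this complex, 4 were thus measured and 1 of those passed 2-fold.

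The upstream sequences of COX8C and COX8A are shown because COX8C is the subunit past 2-fold and COX8A the ubiquitous form of the same subunit. The stretches are the 120 bases before the annotated start in RefSeq (build GRCh38.p14), chr14:93347062-93347181 and chr11:63974500-63974619, both on the plus strand, with each CG dinucleotide in capitals. COX8C holds 7 CG dinucleotides in this stretch and COX8A 9. DNA methylation was not measured, and a count of these letters says nothing of it.
COX8C: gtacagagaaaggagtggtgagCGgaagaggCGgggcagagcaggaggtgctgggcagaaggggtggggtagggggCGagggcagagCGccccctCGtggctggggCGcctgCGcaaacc
COX8A: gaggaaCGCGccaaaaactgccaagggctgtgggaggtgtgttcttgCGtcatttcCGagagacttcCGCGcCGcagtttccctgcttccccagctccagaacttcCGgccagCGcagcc

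Complex V has a catalytic head and central stalk, a rotating ring of c subunits and a peripheral stalk. In the head, the subunits ATP5A1 (alpha) and ATP5B (beta), now named ATP5F1A and ATP5F1B, were at 73345 and 71433 (-0.05) and at 45605 and 47556 (0.05). ATP5C1, the gamma subunit of the central stalk, was at 5133 and 4993 (-0.05). ATP5D was at 22502 and 21681 (-0.06) and ATP5E at 227067 and 233171 (0.03). The 5 genes of the head and central stalk had a median of -0.05.

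The c-ring is built from identical proteins encoded by 3 genes that differ in their import sequence. ATP5G1 was at 23901 and 20840 (-0.21), the lowest measured value after COX8C. ATP5G3 was at 272651 and 241046 (-0.19). ATP5G2 was at 113445 and 113555 (-0.01). Over 6 settings, which rescale the same signals, ATP5G1 ran from -0.21 to -0.12 and ATP5G3 from -0.19 to -0.15. Neither changed sign, and neither reached 1.2-fold. Each rests on 1 probe, and probes for these related genes may bind more than 1 of the transcripts.

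In the peripheral stalk ATP5O, also known as OSCP, was the highest gene of the complex, at 163762 and 176052 (0.10). ATP5J was at 76681 and 72582 (-0.09), ATP5F1 at 53694 and 52520 (-0.04) and ATP5H at 100900 and 99180 (-0.03). Of the small membrane subunits, ATP5J2 was at 24445 and 23297 (-0.08) with a second probe at 0.03, ATP5I at 76626 and 74331 (-0.05) and ATP5L at 206854 and 213872 (0.04). ATP5L2, a close relative of ATP5L, was at 45783 and 48549 (0.08). Its probe may bind ATP5L transcripts, and its second probe was below the floor.

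Different probes of a gene are the only repeated measurement here. They share the same RNA and array, so they leave out the spread between cultures. Of the measured subunits 20 had more than 1 measured probe. The pooled probe-to-probe SD of the difference was 0.09 over these 20, against 0.19 over 4721 names with several measured probes. It was 0.04 over 8 subunits and 0.07 over 209 names when the probes were restricted to those above 10000 units. The widest disagreements came from dim second probes: NDUFC2 was at -0.03 on its brightest probe and at -0.47, from 531 to 385, on the other, and UQCRB was at -0.05 and, from 228 to 175, at -0.39. Both dim probes were past 1.2-fold lower, while the brightest probe of each gene was not. COX6B2 was at 0.01 and 0.21. No subunit had measured probes more than 0.5 apart.

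**Figure D3:**
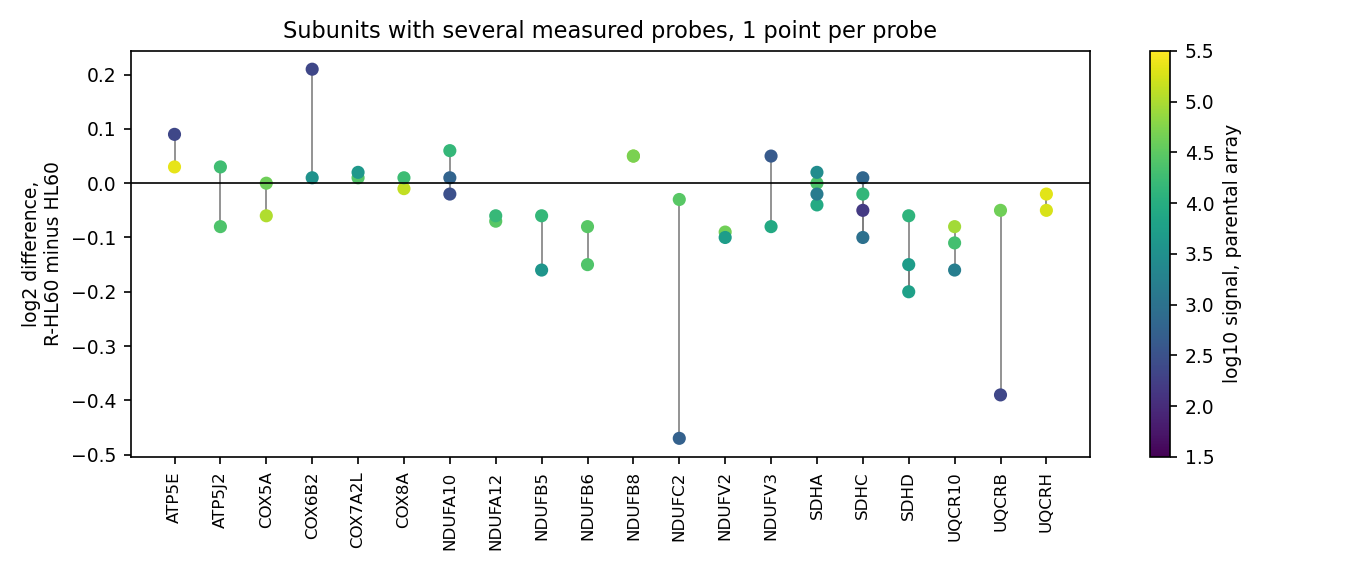
Log2 difference (R-HL60 minus HL60) of each measured probe for the 20 subunits with more than 1, coloured by log10 of the parental signal, with a line joining the probes of a gene. Most probes of a gene lie within 0.2 of each other; the dim second probes of NDUFC2 (-0.47) and UQCRB (-0.39) lie apart.

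Some of the promoters of these genes hold sequence motifs that the choice by name did not use. RefSeq windows of 300 bases, from 250 before to 50 after the annotated start (GRCh38.p14), were at hand for 68 of the 83 subunits and forms. They were searched on both strands for the NRF1 motif GCGCATGCG, the ETS motif CCGGAAGT, which GABPA recognises, and the YY1 motif AANATGGCG. NRF1 and GABPA are transcription factors long known to drive respiratory chain genes. The NRF1 motif was in 10 windows (14.7%) against 2.76% of 15843 windows of protein-coding genes, the ETS motif in 9 (13.2%) against 6.19%, and the YY1 motif in 16 (23.5%) against 4.81%. At least 1 of them was in 29 (42.6%) against 12.7%. The protein-coding windows were not limited to genes measured in these cells. A match is a string of letters and not a bound site.

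The motifs were spread unevenly over the complexes and within the windows. The YY1 motif was in 10 of 31 windows of complex I, 1 of 3 of II and 3 of 7 of III. It was in 1 of 16 of complex IV and 1 of 11 of complex V. The NRF1 motif was in 4 of 31 windows of complex I, 1 of 3 of II and 0 of 7 of III. It was in 1 of 16 of complex IV and 4 of 11 of complex V. Complex III held 1 of the motifs in 6 of 7 windows and complex IV in 3 of 16. The YY1 motif began in the 50 bases after the start in 14 of the 16 members that had it (87.5%), against 64.2% of the protein-coding windows with the motif. None of the NRF1 or ETS matches of members began there. Over the protein-coding windows with these motifs the shares were also low, at 8.24% for NRF1 and 17.1% for ETS. By motif, the median difference between the lines was -0.06 in 10 measured genes with the NRF1 motif and -0.03 in 56 without. It was -0.02 with and -0.04 without the ETS motif, and -0.04 and -0.03 for YY1. With 87.3% of the measured subunits within 0.1, there was little difference to separate. A link between motif and difference was not tested.

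The stretches below show these motifs in 6 members. These had the largest differences, rounded to 2 decimals and with ties in alphabetical order, among members with a match wholly before the start. Each runs 5′ to 3′ on the gene's strand, with the matching letters in capitals. NDUFS8 (chr11:68030481-68030529, plus strand) holds the YY1 motif, and ATP5J (chr21:25735146-25735194, minus strand), NDUFS6 (chr5:1801341-1801389, plus strand) and NDUFB4 (chr3:120596157-120596205, plus strand) the NRF1 motif, which in NDUFB4 also reads on the other strand 1 base further on. NDUFS1 (chr2:206159575-206159622, minus strand) holds the ETS motif in reverse and UQCRQ (chr5:132866568-132866615, plus strand) in forward orientation.
NDUFS8: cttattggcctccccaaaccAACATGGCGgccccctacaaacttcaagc
ATP5J: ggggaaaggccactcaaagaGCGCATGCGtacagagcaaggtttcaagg
NDUFS6: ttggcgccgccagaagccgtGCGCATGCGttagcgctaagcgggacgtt
NDUFB4: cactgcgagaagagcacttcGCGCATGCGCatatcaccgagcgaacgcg
NDUFS1: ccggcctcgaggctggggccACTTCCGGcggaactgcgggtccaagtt
UQCRQ: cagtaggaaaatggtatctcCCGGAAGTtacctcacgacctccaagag

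The subunits encoded by mitochondrial DNA were not part of the name rule. Of 13, 11 were found under the names used in the files, and all were measured. Their median was -0.05, with 3 above and 8 below 0. ND3 of complex I had the lowest value, at 89311 and 75328 (-0.25), followed by ATP6 of complex V at 121813 and 106418 (-0.20) and CYTB of complex III at 187630 and 166107 (-0.18). ND2 was the highest, at 72336 and 79587 (0.13). COX1 and COX2, which stand here for the complex IV subunits and not for the cyclooxygenases listed as PTGS1 and PTGS2, were at 292617 and 291608 (-0.01) and at 211243 and 204896 (-0.05). None reached 1.2-fold.

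Assembly factors, which build the complexes, were listed together with NDUFAB1, the acyl carrier protein that is also a part of complex I. They had a median of -0.06 over 47 of 48 genes, from -0.31 to 0.35, with 17 above and 30 below 0. None passed 2-fold, 1 was past 1.2-fold higher, where 13.3% of all names were, and 3 past 1.2-fold lower, where 10.7% were. The complex II factor SDHAF4, listed as C6orf57, was the higher one and went from 1831 to 2346 (0.35). The complex IV factors COA7, at 8005 and 6496 (-0.31), and COX20, at 9244 and 7558 (-0.30), and the complex I factor NDUFAF6, at 2722 and 2267 (-0.27), were the lower ones. Electron carriers and enzymes of coenzyme Q synthesis had a median of -0.04 over 19 genes, with 6 above 0 and none past 1.2-fold. Cytochrome c, CYCS, was at 34469 and 32674 (-0.09), and the genes that make the coenzyme Q side chain, PDSS1 and PDSS2, were at -0.24 and -0.23. TCA cycle and pyruvate dehydrogenase genes had a median of -0.05 over 18 genes, with 4 above 0 and none past 1.2-fold. The lowest was DLAT, the pyruvate dehydrogenase E2 subunit, at 4279 and 3711 (-0.21).

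Regulators of mitochondrial biogenesis and mitochondrial gene expression had the lowest of the list medians, at -0.10 over 18 measured of 20 genes, 12 of them below 0. TFB2M, a factor for transcription of mitochondrial DNA, went from 8808 to 7120 (-0.32), PPRC1, a relative of PGC-1alpha, from 10182 to 8475 (-0.27) and TFAM, which packages mitochondrial DNA, from 17235 to 14441 (-0.26). These 3 were the only ones past 1.2-fold, all lower, where 10.7% of all names were past it lower and 13.3% higher. The list median ran from -0.14 to -0.05 over 10 settings. NRF1 and GABPA themselves were at 172 and 174 (0.01) and at 1296 and 1195 (-0.13). PPARGC1A, which encodes PGC-1alpha, was below the floor on both arrays. Carriers and uncoupling proteins had a median of -0.05 over 9 genes. The highest was UCP2, an inner membrane carrier, at 4288 and 5509 (0.35), the only one of them past 1.2-fold. The phosphate carrier SLC25A3 was at -0.08 and the ADP/ATP carrier genes SLC25A5 and SLC25A6 at -0.05 and -0.15. All these lists lay close to the median of -0.03 over all names.

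**Figure D4:**
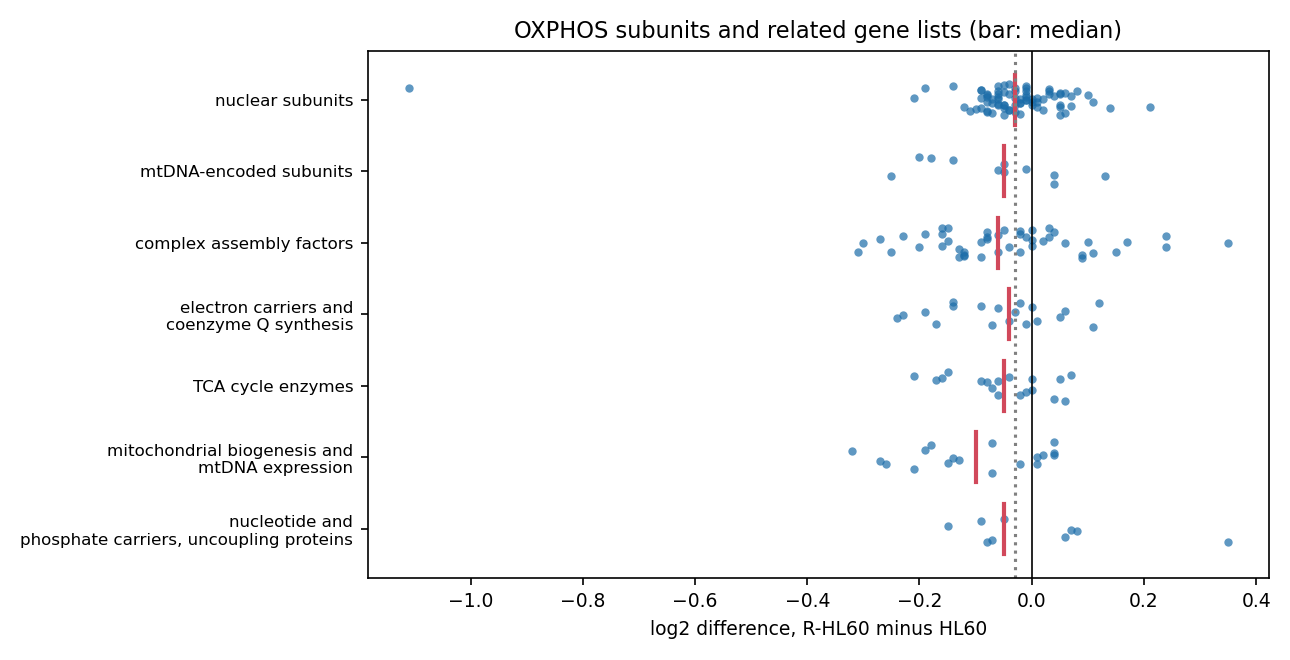
Log2 difference (R-HL60 minus HL60) of each measured gene (points) in the nuclear subunits and in 6 related gene lists, with a bar at each list's median and a dotted line at the median of all measured names (-0.03). Every list median lies between -0.10 and -0.03, and COX8C at -1.11 is the only point past 2-fold.

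The remaining members are not subunits. The factor genes ATP5S and ATP5SL were at 3020 and 3056 (0.01) and at 17775 and 16907 (-0.08). NDUFA6-AS1, which shares a start region with NDUFA6, was at 355 and 425 (0.25), while its 4 probes ran from -0.08 to 0.25. NDUFB2-AS1 was at 306 and 320 (0.06) with a second probe at -0.18, and NDUFV2-AS1 at 103 and 106 (0.03). Their partner genes NDUFA6, NDUFB2 and NDUFV2 were at -0.03, -0.06 and -0.09. UQCRBP1 was below the floor on both arrays.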

How the data were processed

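Per the labels' protocols, total RNA of each line was labelled with Cy3, and the submitters' processing notes name Agilent Feature Extraction 10.7.3.1. The authors deposited 1 linear intensity per probe for each array and a table of normalized intensities. Which scanner column these hold, how background was treated and which probes were saturated are not given in the sources used here. Very bright probes may be compressed by saturation, which was not tested. The sorted columns of the normalized table differed by at most 1.18%, and its values lay within 1.06% of quantile normalization of the deposited intensities.

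Log2 differences were computed after scaling each array to its 75th percentile, with the array median as floor. A name with several probes took its brightest. Names above the floor on 1 array had a bound. With 1 array per line no test was run, and the number of arrays limits the precision. Names past 2-fold were counted, beside the same share over all names. All 89 member names matched the RefSeq gene table, 68 as current and 21 as older symbols.

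The members, the gene lists and the thresholds were chosen with earlier results of these data known. Named genes were the extremes of each complex, all of complex II, every tissue form and every member past 1.5-fold, with up to 3 per list; further genes were named for their role with their values in view. The alternatives tried were the authors' normalized table, quantile normalization, a shift to the median, an offset of 50, no floor or one at the 40th or 60th percentile, the mean of all probes, each probe on its own, means for medians and lower fold thresholds, down to 1.2-fold. The steps were tested on simulated data with planted changes of more than 2-fold in either direction, so that test does not bear on smaller differences. The values of 1 member are not reported here. Protein sequences are not shown, as none were at hand. Python 3.11.15, numpy 2.4.6, pandas 2.3.3 and matplotlib 3.10.9 were used.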

Additional observations from a re-analysis of the deposited data

How the results depend on the processing

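Over the 10 to 13 settings run for each, the medians of all subunits, of each complex and of the 6 related lists moved by at most 0.1 on the log2 scale, and the count of subunits at least 2-fold higher was 0 in all settings that gave it. Without a floor the count at least 2-fold lower was 2 in place of 1, because COX7A1, with signals of 23.8 and 5.26, was then counted beside COX8C. The medians of all subunits and of complexes I, II and IV changed sign between settings, from -0.04 to 0.01, -0.04 to 0.01, -0.03 to 0.05 and -0.06 to 0.04. Of 395 values of single subunits under other settings 393 moved by less than 0.19, the probe-to-probe SD over all names. Against the subunits' own SD of 0.09, 6 moved by more, all in the mean of all probes: ATP5L2 at 0.56, NDUFS7 at -0.13 and COX7A2L at -0.09, where a probe below the floor entered, and NDUFC2 at -0.25, UQCRB at -0.22 and COX6B2 at 0.11. For a subunit with 1 probe the mean of all probes is the main value by construction, and the authors' table nearly repeats quantile normalization. A 1.2-fold threshold, counting NDUFA4 with complex I, and leaving out alternative forms were settings added after seeing the data. No paired analysis was possible because each line has 1 array and the labels carry no replicate numbers. The spread between probes leaves out that between cultures, so the error of a difference between the lines is unknown with 1 array per line.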
